A study of Mus musculus with 16 samples.

Results

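The genes described here are 10 components of the NF-κB system. They are the 4 subunit genes *Nfkb1*, *Nfkb2*, *Rela* and *Relb* and 6 inhibitor, cofactor or ubiquitin-linked genes, *Nfkbia*, *Nfkbiz*, *Bcl3*, *Tnfaip3*, *Tnip1* and *Birc3*. They were chosen by symbol, each matched to its Ensembl identifier, and all 10 were found among the 52636 genes of the count table and had enough counts to be tested. The measurements are RNA sequencing counts from isolated pancreatic islets, the endocrine cell clusters that hold the insulin-secreting beta cells, taken from male mice aged 12 weeks that the labels name as C57BL/6JRj and the paper as C57BL/6NRj. Islets were cultured for 10 days with no addition (control), with 50 pg/mL of the cytokine IL-1β, with 0.2 mM sodium butyrate, a fatty acid with a short chain that gut bacteria produce, or with IL-1β and butyrate together. Culture medium in every condition contained human serum. There were 16 libraries, 4 in each of the 4 conditions, and the paper describes 4 independent experiments. Each library was made from 500 islets of several mice mixed together, so the spread between replicates is between experiments and not between single animals.

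NF-κB proteins are transcription factors that work as pairs. In the canonical pathway, IκBα, the product of *Nfkbia*, holds the pair of p65 (*Rela*) and p50 (*Nfkb1*) in the cytoplasm until a signal such as IL-1β activates the IκB kinase, which marks IκBα for destruction. In the non-canonical pathway, the p100 product of *Nfkb2* is trimmed to p52, which pairs with *Relb*. NF-κB induces its own restraints, among them IκBα and the ubiquitin-editing enzyme A20 (*Tnfaip3*), and in beta cells it carries much of the transcriptional response to IL-1β.

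Because binding of these factors to κB sites is the textbook basis of this feedback, the sequence around the start of each gene was searched for them. RefSeq windows of 300 bases around the transcription start (build GRCm38.p6) were at hand for 7 of the 10 genes, and *Nfkb1*, *Nfkbiz* and *Relb* had none. On both strands, the κB consensus of 10 letters was found in 5 of the 7, namely *Nfkbia*, *Nfkb2*, *Bcl3*, *Tnfaip3* and *Tnip1*, against 4.51% of all 32851 windows and 5.14% of the 27025 genes with a window. A 9-letter form that overlaps it, GGAANTTCC, was found in *Nfkbia* and *Tnfaip3* and in 0.928% of all windows. *Rela* and *Birc3* held neither. A stretch of 30 bases with a match is shown for each of the 5 genes, since κB sites near the start are the textbook link of these genes to NF-κB, read on the strand of the gene with matched letters in capitals, and positions are counted from 1 at the start with -1 just before it.
Nfkbia, chr12:55492657-55492686, minus strand, positions -39 to -10: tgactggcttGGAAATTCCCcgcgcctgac
Nfkb2, chr19:46304688-46304717, plus strand, positions -49 to -20: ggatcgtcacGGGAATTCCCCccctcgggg
Tnip1, chr11:54962978-54963007, minus strand, positions -67 to -38: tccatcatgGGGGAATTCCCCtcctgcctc
Tnfaip3, chr10:19015409-19015438, minus strand, positions -28 to 2: gactGGAATTTCCatcGGAAATCCCCctgt
Bcl3, chr7:19822734-19822763, minus strand, positions -8 to 22: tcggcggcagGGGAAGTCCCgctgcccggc
*Nfkb2* held a further match at -11 to -2 from the same start, and others in windows around other starts of this gene. *Tnfaip3* held 1 more at -125 to -116. A gene with more than 1 window had more chances of a match. The matches describe the letters of these windows and were not measured as binding in these islets.

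Total counts per library lay between 18635943 and 25955943, and a single gene of the 10 had between 80 counts (*Tnfaip3* with butyrate) and 2712 counts (*Nfkbiz* with IL-1β) in a library. Levels are given as CPM, counts divided by a library total that edgeR's TMM method corrects for composition and scaled to a common size, and differences as log2 fold changes from edgeR, each with its standard error (SE). A gene was called raised or lowered at an adjusted p under 0.01 (edgeR's quasi-likelihood test, Benjamini-Hochberg over the 18587 genes tested). Islet identity was checked against marker lists. The summed CPM of 7 beta cell markers was 214000 to 236800 in control islets. Markers of T cells, B cells, endothelial cells, fibroblasts and acinar cells summed to at most 29.4 CPM per list in any library. Macrophage markers reached 211.8 CPM and duct markers 811.8 CPM in the highest library.

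IL-1β raised 9 of the 10 genes above control, and the largest rises were those of *Nfkb2* (6.14-fold) and *Birc3* (5.72-fold). Among the subunits, the non-canonical pair *Nfkb2* and *Relb* rose far more than the canonical pair, of which *Nfkb1* rose 1.25-fold and *Rela* was not called. All 6 inhibitor, cofactor and ubiquitin-linked genes rose between 3.03-fold and 5.72-fold. The median log2 fold change of the 10 genes was 1.84, beside -0.03 for all genes tested, and 11.2% of all genes tested were called raised and 6.59% called lowered. In whole islets, more cells of a type and more RNA per cell cannot be told apart. Of 10 macrophage markers, 9 were raised and *C1qa* was lowered with IL-1β. Their summed CPM moved from 127.8 to 141.2 in control libraries to 173.5 to 211.8 with IL-1β, or without *C1qa* from 16.9 to 28.3 up to 82.5 to 144.2. Of 7 beta cell markers 5 were lowered and 1 was raised (sum 137600 to 179200 with IL-1β). Of the 4 tested duct markers 2 were raised, *Spp1* (3.74) and *Krt7* (0.23), with a sum of 5 genes from 340.3 to 367.1 up to 499.1 to 597.3. No marker of these lists was at 0 in all libraries, and their part in the changes of the 10 genes was not tested.

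*Nfkb2* encodes p100, both an inhibitor and the precursor of p52. It was at 12.7, 11.1, 10.8 and 10.9 CPM in control replicates 1 to 4 and at 86.3, 66.8, 63.7 and 63.2 CPM in the IL-1β replicates. Each IL-1β library was far above every control library, and IL-1β replicate 1 stood above the rest. The log2 fold change was 2.62 (SE 0.10, adjusted p = 9.96e-14). *Relb*, the partner of p52, was at 8.31, 8.30, 7.60 and 7.40 CPM in control islets and at 32.0, 27.5, 24.6 and 26.2 CPM with IL-1β. The groups lay well apart, again with replicate 1 highest, and the log2 fold change was 1.80 (SE 0.09, adjusted p = 1.16e-14).

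*Nfkb1*, which encodes p105 and p50, was at 64.3, 63.5, 65.0 and 63.9 CPM in control islets and at 83.0, 79.1, 84.2 and 76.0 CPM with IL-1β. All IL-1β libraries were above all control libraries, and the rise of 0.33 on the log2 scale (SE 0.05, adjusted p = 3.12e-06) was the smallest among those called. *Rela*, which encodes p65, was at 36.3, 37.1, 36.6 and 35.9 CPM in control islets and at 40.8, 40.5, 38.5 and 39.8 CPM with IL-1β. These groups did not overlap either, but the log2 difference was 0.13 with a 95% confidence interval from 0.03 to 0.23 (adjusted p = 0.053), which did not pass the threshold. With scaling to library size alone it was 0.19 and did pass (adjusted p = 0.00691).

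*Nfkbia*, the canonical inhibitor, was at 28.0, 24.9, 24.3 and 26.1 CPM in control islets and at 93.5, 90.4, 82.2 and 79.0 CPM with IL-1β. It rose 3.34-fold (log2 1.74, SE 0.08, adjusted p = 2.53e-12), with no overlap of the groups. *Nfkbiz* encodes IκBζ, a nuclear cofactor that acts with p50 at secondary response genes. Its levels in control islets were 26.04, 26.1, 26.6 and 26.8 CPM and with IL-1β they were 109, 107, 94.0 and 97.9 CPM. The rise was 3.86-fold (log2 1.95, SE 0.06, adjusted p = 6.15e-19). *Bcl3*, another nuclear IκB protein, which binds p50 and p52, went from 6.67, 6.21, 8.07 and 5.69 CPM to 25.8, 28.2, 24.3 and 28.5 CPM. This was a 4.03-fold rise (log2 2.01, SE 0.09, adjusted p = 2.05e-15) and replicate 1 was not the highest in either group.

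*Tnfaip3* encodes A20, which removes activating ubiquitin chains. It had the fewest counts of the set in control islets, at 6.25, 5.17, 5.26 and 5.26 CPM, and was at 22.4, 19.9, 20.1 and 18.3 CPM with IL-1β. Its rise was 3.67-fold (log2 1.88, SE 0.10, adjusted p = 1.53e-14). *Tnip1* encodes ABIN1, which binds ubiquitin chains and works with A20, and it was at 20.95, 21.6, 19.2 and 19.4 CPM in control islets and at 56.8, 67.6, 60.3 and 61.1 CPM with IL-1β. The log2 fold change of 1.60 (SE 0.05, adjusted p = 1.81e-18) was the smallest among the genes other than subunits. *Birc3* encodes the ubiquitin ligase cIAP2, and it went from 11.9, 9.42, 9.22 and 7.83 CPM in control islets to 54.0, 53.7, 56.3 and 54.9 CPM with IL-1β. The control libraries of *Birc3* were more spread than its IL-1β libraries (SD 1.69 and 1.16 CPM), although the mean rose 5.72-fold (log2 2.52, SE 0.08, adjusted p = 2.73e-18).

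**Figure D1:**
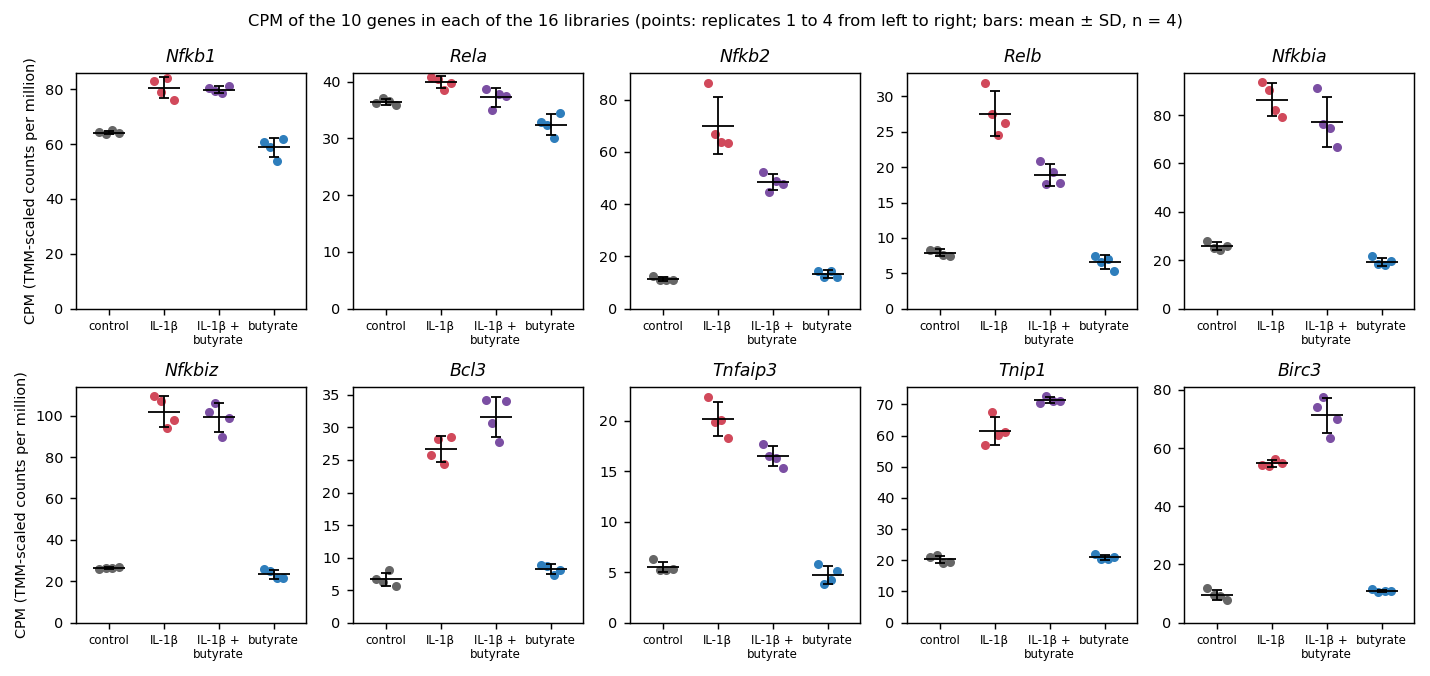
Level of each of the 10 genes in CPM (y axes, linear and starting at 0, with a range of their own per gene) in the 4 conditions (x axis), with 1 point per library and bars for the mean ± SD of 4 libraries. Apart from *Nfkb1* and *Rela*, the points with IL-1β lie far above those without it, and only *Nfkb2* and *Relb* among the called genes show lower points with IL-1β plus butyrate than with IL-1β.

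When butyrate was present together with IL-1β, the 10 genes did not move in one direction compared with islets exposed to IL-1β. *Nfkb2* and *Relb* were lowered to 0.693 and 0.687 times their IL-1β level, *Birc3* was raised 1.30-fold and *Tnip1* 1.16-fold, and the other 6 genes were not called. These 2 raised and 2 lowered genes stood beside 8.41% of all tested genes called raised and 11.1% called lowered, and the median log2 fold change of the 10 was -0.07, beside 0.01 for all genes. Of the 10 macrophage markers, 4 were lowered in the same comparison and none raised, with a summed CPM of 95.9 to 128.2 with both agents, or 37.7 to 83.0 without *C1qa*. Of the 7 beta cell markers 1 was lowered (sum 138000 to 170200 CPM). Of the 4 tested duct markers *Krt7* was lowered (-0.22, adjusted p = 0.00137), and the sum of the list was 513.8 to 811.8 CPM. The others were not called, with estimates of 1.135 for *Spp1* (adjusted p = 0.0143), 0.30 for *Sox9* and -0.49 for *Krt19*. Of the 2 delta cell markers *Sst* was raised (0.61, adjusted p = 1.01e-05), the sum going from 1580 to 2067 CPM with IL-1β up to 2493 to 3016 CPM, and of the 3 alpha cell markers *Gcg* was raised (0.25, adjusted p = 0.00869) and *Irx1* lowered (-0.54, adjusted p = 3.19e-05). The part of these cell types in the changes was not tested.

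The non-canonical subunits moved down together. With IL-1β plus butyrate, *Nfkb2* was at 52.2, 44.8, 49.0 and 47.8 CPM, each below the lowest IL-1β library of 63.2 CPM (log2 fold change -0.53, SE 0.08, adjusted p = 9.31e-05). *Relb* was at 20.9, 17.6, 19.3 and 17.8 CPM, each below the lowest IL-1β library of 24.6 CPM (log2 fold change -0.54, SE 0.08, adjusted p = 1.19e-05). Both remained above every control library. By contrast, the canonical subunits were close to their IL-1β levels, with *Nfkb1* at 80.3, 79.2, 78.5 and 81.3 CPM and a difference of -0.01 (95% confidence interval -0.11 to 0.08, adjusted p = 0.87). For *Rela*, at 38.7, 34.9, 37.8 and 37.4 CPM, the difference was -0.10 (95% confidence interval -0.20 to 0.00013, adjusted p = 0.126).

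Of the ubiquitin-linked genes, *Birc3* was at 74.0, 77.5, 63.5 and 70.1 CPM with both agents, all above the 4 IL-1β libraries (log2 fold change 0.38, SE 0.07, adjusted p = 8.21e-05). *Tnip1* was at 70.5, 72.8, 71.2 and 70.9 CPM, also all above the IL-1β libraries, of which replicate 1 was the lowest (log2 fold change 0.22, SE 0.05, adjusted p = 0.00149). Without IL-1β replicate 1 the *Tnip1* difference was 0.16 and did not pass the threshold (adjusted p = 0.0156), nor did it without replicate 1 of every condition (0.19, adjusted p = 0.012). *Tnfaip3* lay on the other side, at 17.7, 16.5, 16.3 and 15.3 CPM, all below the IL-1β libraries, with a log2 difference of -0.29 (95% confidence interval -0.46 to -0.11) and an adjusted p of 0.0112 just outside the threshold. The A20 gene and the genes of its partner ABIN1 and of cIAP2 thus had estimates of opposite sign in the same libraries.

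The IκB genes showed no called difference. *Nfkbia* was at 91.3, 76.1, 74.8 and 66.7 CPM with both agents, a range that overlapped with its IL-1β libraries (difference -0.16, 95% confidence interval -0.32 to 0.0048, adjusted p = 0.138). *Nfkbiz*, at 102, 106, 89.6 and 99.0 CPM, differed by -0.04 (95% confidence interval -0.16 to 0.08, adjusted p = 0.641). *Bcl3*, at 34.2, 30.7, 27.7 and 34.0 CPM, was higher by 0.24 (95% confidence interval 0.08 to 0.40, adjusted p = 0.0187). Replicates of the same number deviated together across these conditions. With the replicate number as a block 7 of the 10 genes were called in place of 4. The additional ones were *Nfkbia* (-0.16, adjusted p = 0.00365), *Tnfaip3* (-0.29, adjusted p = 5e-04) and *Bcl3* (0.24, adjusted p = 0.00377). The share of all genes called with the block is not given here, so whether the block added calls among all genes alike cannot be told. The number of called genes was 3 without IL-1β replicate 1 and 6 without replicate 1 of IL-1β plus butyrate, where *Nfkbia* (-0.26, adjusted p = 0.00309) and *Tnfaip3* (-0.34, adjusted p = 0.00683) were called as well.

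**Figure D2:**
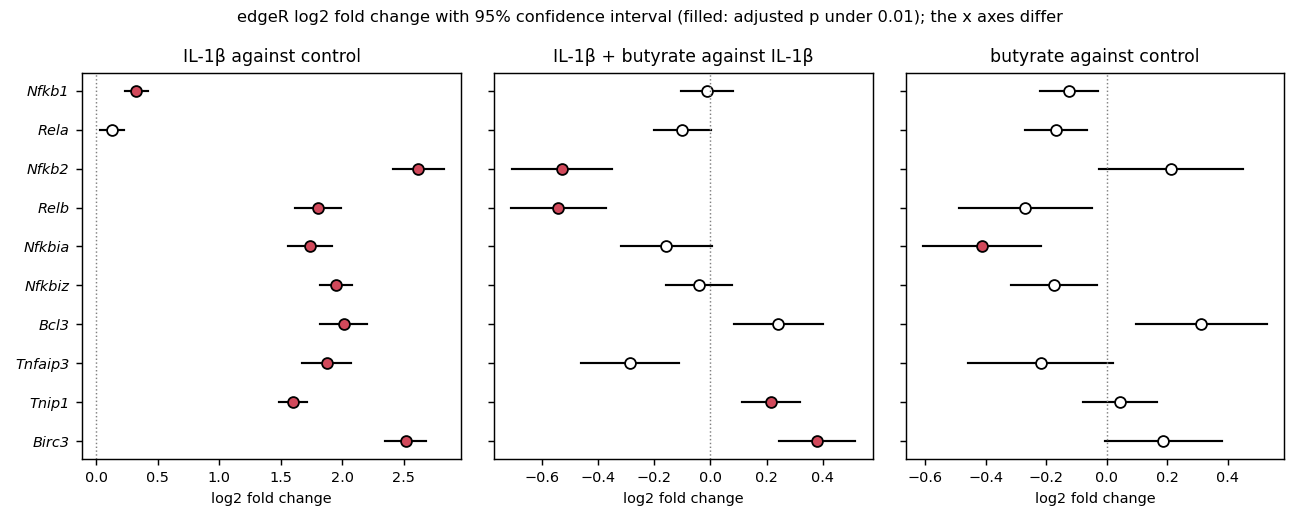
edgeR log2 fold changes of the 10 genes (x axes, whose ranges differ between panels) with 95% confidence intervals in 3 comparisons, where filled points have an adjusted p under 0.01. All points but *Rela* are filled for IL-1β against control, *Nfkb2* and *Relb* lie to the left and *Tnip1* and *Birc3* to the right among the filled points for IL-1β plus butyrate against IL-1β, and only *Nfkbia* is filled for butyrate against control.

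With butyrate alone, 1 of the 10 genes was called in the fit without a replicate block. With the replicate number as a block, *Rela* (-0.17, adjusted p = 0.00484) and *Nfkbiz* (-0.18, adjusted p = 0.00953) were called lowered as well. The share of all genes called with the block is not given here. *Nfkbia* was at 21.8, 18.4, 17.9 and 19.5 CPM with butyrate, each below the lowest control library of 24.3 CPM, a log2 fold change of -0.41 (SE 0.09, adjusted p = 0.00197). In this comparison 11.4% of all genes tested were called lowered and 8.53% raised, so 1 lowered gene of 10 was about the share seen among all genes. The median of the 10 genes was -0.15, beside 0.01 for all genes. In the summed macrophage markers, butyrate libraries were at 84.9 to 105.4 CPM, or 13.6 to 23.2 CPM without *C1qa*, and 1 of these 10 markers was lowered. Of the 7 beta cell markers 2 were raised and 1 lowered (sum 222400 to 261900 CPM). The hormone gene of delta cells, *Sst*, was raised by 0.55 (adjusted p = 2.78e-05), and *Irx1*, 1 of 3 alpha cell markers, was lowered (-0.725, adjusted p = 6.53e-07). Whether these cell types had a part in the change of *Nfkbia* was not tested.

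Several of the 9 genes not called were near the threshold. *Rela* was at 32.9, 32.3, 30.1 and 34.4 CPM with butyrate, all below control, with a difference of -0.17 (95% confidence interval -0.27 to -0.07, adjusted p = 0.0106). *Bcl3*, at 8.84, 8.70, 7.32 and 8.09 CPM, overlapped with control and differed by 0.31 (95% confidence interval 0.10 to 0.53, adjusted p = 0.0262). *Nfkb1* was at 60.6, 58.9, 53.9 and 61.7 CPM, all below control (-0.13, adjusted p = 0.0433). At a threshold of 0.05 these 3 genes would be called as well. *Relb*, at 7.48, 6.57, 7.05 and 5.25 CPM, overlapped with control (-0.27, adjusted p = 0.0593), and so did *Nfkb2*, at 14.5, 11.9, 14.4 and 12.1 CPM (0.21, adjusted p = 0.181). The subunits that were lowered together by butyrate in the presence of IL-1β therefore had estimates of opposite sign in its absence. *Nfkbiz* (25.7, 25.0, 21.6 and 21.4 CPM) and *Tnfaip3* (5.83, 3.78, 4.18 and 5.08 CPM) had negative estimates of -0.17 (adjusted p = 0.0577) and -0.22 (adjusted p = 0.172). *Tnip1* (21.9, 20.4, 20.3 and 21.1 CPM) and *Birc3* (11.5, 10.6, 10.8 and 10.8 CPM) had positive ones of 0.04 (adjusted p = 0.633) and 0.19 (adjusted p = 0.146). *Rela* was called lowered when replicate 4 of butyrate (-0.20, adjusted p = 0.00612), replicate 2 of IL-1β (-0.17, adjusted p = 0.00958) or replicate 2 of IL-1β plus butyrate (-0.17, adjusted p = 0.00771) was left out. *Bcl3* (0.41, adjusted p = 0.00435) was called raised without control replicate 3 and *Birc3* (0.30, adjusted p = 0.00907) without control replicate 1, so 2 genes were called in each of these 5 cases in place of 1.

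In the presence of butyrate, IL-1β raised all 10 genes above butyrate alone, beside 9.92% of all genes tested. The rises were 6.54-fold for *Birc3*, 4.24-fold for *Nfkbiz*, 3.99-fold for *Nfkbia*, 3.84-fold for *Bcl3* and 3.68-fold for *Nfkb2*. *Tnfaip3* (3.50-fold), *Tnip1* (3.41-fold), *Relb* (2.88-fold) and *Nfkb1* (1.36-fold) followed. *Rela* rose 1.15-fold (log2 0.20, SE 0.05, adjusted p = 0.00384) in this comparison. That call was lost with upper-quartile scaling (0.16, adjusted p = 0.0138) and in each of 5 fits that left out 1 library, namely replicates 2 (adjusted p = 0.0122) and 3 (0.0257) of butyrate and replicates 1 (0.0203), 3 (0.0154) and 4 (0.0125) of IL-1β plus butyrate. It was also lost without replicate 1 of every condition (adjusted p = 0.026). In the same comparison 9 of 10 macrophage markers were raised and 1 lowered (median log2 fold change 2.03), and 6 of 7 beta cell markers were lowered, and their part was not tested.

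Islets exposed to both agents were also set against control islets, with which the comparison of IL-1β alone shares its control libraries. All but *Rela*, 9 genes, were raised, beside 15.8% of all genes tested. For *Nfkb2* the log2 difference from control was 2.09 (SE 0.10) with both agents and 2.62 with IL-1β alone, and for *Relb* it was 1.26 (SE 0.09) and 1.80. For *Birc3* it was 2.90 (SE 0.08) with both agents and 2.52 with IL-1β alone, and for *Bcl3* 2.25 (SE 0.09) and 2.01. *Rela* was 0.03 above control with both agents (95% confidence interval -0.07 to 0.13, adjusted p = 0.70). Of the macrophage markers 7 of 10 were raised and 1 lowered compared with control, and of the beta cell markers 5 of 7 were lowered and 1 raised, and here too their part was not tested.

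Whether the effect of butyrate differed between islets with and without IL-1β was tested as an interaction, the butyrate effect with IL-1β minus that without. None of the 10 genes was called, beside 0.0968% of all genes tested. At an unadjusted p under 0.05 there were 3, and DESeq2 called 1. The shares of all genes at that unadjusted p and with DESeq2 are not given here. The gene called by DESeq2 was *Nfkb2*, with a difference of -0.74 (SE 0.14, 95% confidence interval -1.04 to -0.44) and an adjusted p of 0.0314 in edgeR. It was called by DESeq2 (-0.75, adjusted p = 4.6e-05), with upper-quartile scaling (adjusted p = 0.00813), without the filter on low counts (adjusted p = 7.17e-11) and with the replicate block (adjusted p = 1.18e-06). Leaving out IL-1β replicate 1, the high library of *Nfkb2*, gave a smaller difference of -0.64 and a smaller adjusted p of 0.00079, and leaving out replicate 1 of every condition gave -0.67 (adjusted p = 0.000777). For *Relb*, which fell by a like amount with butyrate under IL-1β, the interaction was -0.27 (95% confidence interval -0.55 to 0.0058, adjusted p = 0.691). *Nfkbia*, called lowered by butyrate without IL-1β, had an interaction of 0.26 (95% confidence interval 0.0037 to 0.51, adjusted p = 0.674), so a difference between its butyrate effects did not pass the test.

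Transcript levels of non-canonical and canonical subunits, and of inhibitor and canonical subunit, were set against each other as count ratios within each library. Such ratios do not depend on scaling between libraries and are not corrected for gene length. They describe RNA levels, and the activity of the pathways was not measured. These ratios were compared by exact two-sided permutation tests of 4 against 4 libraries, for which 0.0286 is the smallest possible p, adjusted over 15 tests. In control replicates 1 to 4 there were 0.197, 0.175, 0.167 and 0.171 counts of *Nfkb2* for each count of *Nfkb1*. With IL-1β the ratio was 1.04, 0.844, 0.756 and 0.832, a 4.87-fold rise of the geometric mean, and with both agents 0.651, 0.565, 0.624 and 0.587, which is 0.703 times that with IL-1β. The 3 groups did not overlap (exact p = 0.0286 and adjusted p = 0.0357 for both steps). An exact sign-flip permutation test that pairs libraries by replicate number gave p = 0.125 for each step (adjusted p = 0.144). That is the smallest p the exact paired permutation test can give, so it cannot decide at a threshold of 0.05. With butyrate alone it was 0.239, 0.202, 0.267 and 0.197, a group that reached down to the highest control library (exact p = 0.0571, adjusted p = 0.0659).

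The ratio of *Relb* to *Rela* was 0.229, 0.224, 0.207 and 0.206 in control islets and 0.782, 0.679, 0.640 and 0.660 with IL-1β. With both agents it was 0.539, 0.503, 0.511 and 0.476. It thus rose by 1.67 on the log2 scale with IL-1β and was lower by 0.44 with both agents (log2 difference -0.44; exact p = 0.0286, adjusted p = 0.0357 for each). With butyrate alone, at 0.228, 0.204, 0.235 and 0.153, it overlapped with control (-0.10, exact p = 0.714). *Nfkbia* counts per *Rela* count, inhibitor against canonical subunit, were 0.770, 0.672, 0.664 and 0.727 in control islets and 2.29, 2.24, 2.14 and 1.99 with IL-1β. They were 2.36, 2.18, 1.98 and 1.78 with both agents, a range that took in that of IL-1β alone (log2 difference -0.07, exact p = 0.571), and 0.661, 0.570, 0.597 and 0.566 with butyrate (log2 difference from control -0.24, exact p = 0.0286, adjusted p = 0.0357). So in the unpaired test the ratios of non-canonical to canonical subunits differed between IL-1β with and without butyrate. A difference of the inhibitor ratio did not pass that test. With libraries paired by replicate number, the exact sign-flip permutation test gave its smallest possible p of 0.125 for each subunit ratio. It therefore cannot decide whether they differed.

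**Figure D3:**
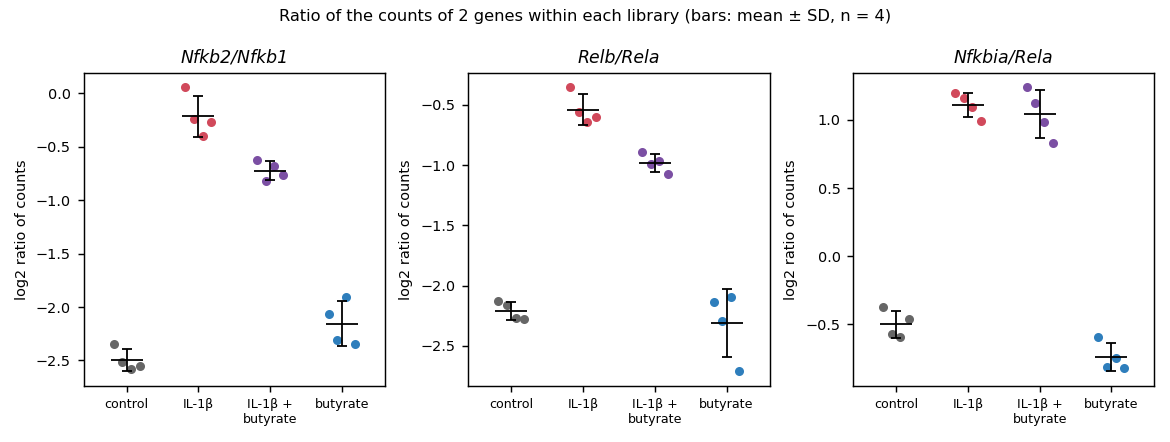
Log2 ratio of the counts of *Nfkb2* to *Nfkb1*, *Relb* to *Rela* and *Nfkbia* to *Rela* (y axes, with a range of their own per ratio) in the 4 conditions (x axis), with 1 point per library and bars for the mean ± SD of 4 libraries. IL-1β plus butyrate lies between control and IL-1β for both ratios of subunits, with a mean of -0.72 beside -2.50 and -0.21 for *Nfkb2* to *Nfkb1*, and overlaps with IL-1β for *Nfkbia* to *Rela*.

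Levels were compared between genes as CPM per kb of exon (GENCODE M21), where the exon length was that of all annotated exons merged. That length was 12.06 kb for *Nfkb1*, against 1.61 kb (*Nfkbia*) to 7.23 kb (*Tnfaip3*) for the others. Before this division *Nfkb1* was the highest of the 10 in control islets, at 64.2 CPM, so its place depends on the length used. In control islets *Nfkbia* was highest at 16.04 ± 0.992 CPM per kb (SD, n = 4), followed by *Rela* at 11.9 ± 0.171. *Tnip1* (5.73 ± 0.331) came next, with every library just above those of *Nfkb1* (5.32 ± 0.0506), whose libraries overlapped with those of *Nfkbiz* (5.26 ± 0.0741). *Bcl3* (2.69 ± 0.413), *Nfkb2* (2.48 ± 0.186), *Relb* (2.03 ± 0.121) and *Birc3* (1.92 ± 0.338) formed a lower group in which neighbours overlapped, apart from *Nfkb2* and *Relb*, and *Tnfaip3* was lowest at 0.759 ± 0.0711. With IL-1β the order was *Nfkbia* (53.6 ± 4.23), *Nfkbiz* (20.3 ± 1.46), *Tnip1* (17.4 ± 1.28), *Nfkb2* (15.3 ± 2.40) and *Rela* (12.98 ± 0.341). The libraries of *Nfkbiz* overlapped with those of *Tnip1*, and these with *Nfkb2*, which lay above *Rela*. *Birc3* (10.9 ± 0.231) and *Bcl3* (10.8 ± 0.809) were within their spread of each other, as were *Relb* (7.10 ± 0.810) and *Nfkb1* (6.68 ± 0.310), and *Tnfaip3* remained lowest (2.79 ± 0.233). By these lengths *Rela* ranked 2 in control islets and 5 with IL-1β, and the transcript of the canonical inhibitor was first in all 4 conditions. With both agents *Tnip1* (20.2 ± 0.285) and *Nfkbiz* (19.8 ± 1.41), which overlapped, came after *Nfkbia* (48.0 ± 6.39), and *Nfkb2* (10.6 ± 0.673) was below *Birc3* (14.2 ± 1.19), *Bcl3* (12.8 ± 1.25) and *Rela* (12.1 ± 0.525), which overlapped in that order as neighbours. *Nfkb1* (6.62 ± 0.104), *Relb* (4.86 ± 0.393) and *Tnfaip3* (2.28 ± 0.136) were lowest. With butyrate alone *Nfkbia* (12.0 ± 1.06) and *Rela* (10.6 ± 0.590) were again the highest and overlapped at their edges, and the other 8 genes lay between 0.652 ± 0.127 (*Tnfaip3*) and 5.91 ± 0.202 (*Tnip1*).

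**Figure D4:**
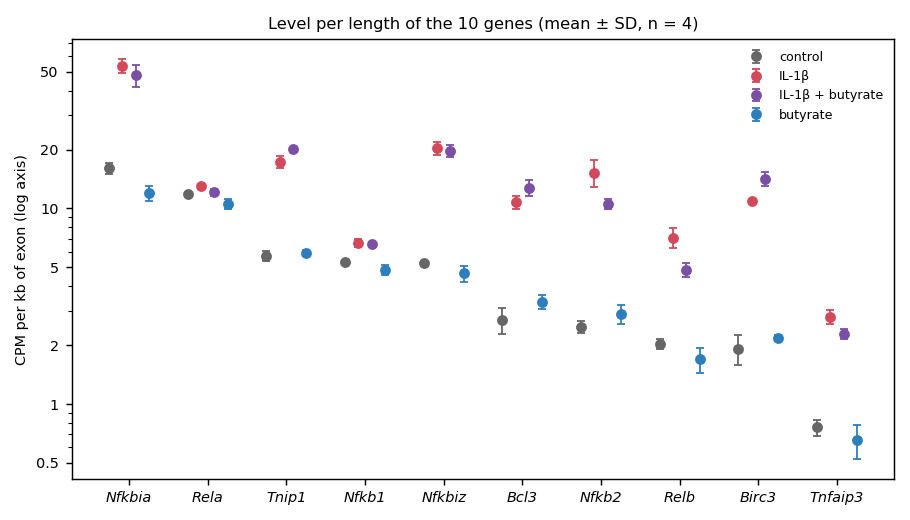
Level per length of the 10 genes in CPM per kb of exon (log y axis) in the 4 conditions, as mean ± SD of 4 libraries. The exon length is that of all annotated exons merged. By this length *Nfkbia* is highest in every condition, up to 53.6 CPM per kb with IL-1β, and *Tnfaip3* is lowest in every condition.

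The other genes of the pathway were taken as 69 listed genes, of which 66 were tested and *Cxcl2*, *Il6* and *Tnf* were not. With IL-1β 33 were raised and 4 lowered, beside the 11.2% and 6.59% of all genes tested given above, and most of the raised genes were among the targets. Of 24 tested target genes 20 were raised and none lowered, with a median log2 fold change of 1.46. Those with the highest fitted changes were *Lcn2*, an iron-sequestering protein (from 0.763 ± 0.632 to 1364 ± 433 CPM), and the chemokine genes *Ccl20* and *Cxcl1* (the latter from 0.320 ± 0.0918 to 26.7 ± 0.582 CPM). *Ccl20* had 0 to 1 counts in control libraries against 109 to 163 counts with IL-1β, which is at least 47.9-fold higher than 3 counts in every control library. This bound is below the 49.1-fold rise of *Icam1*, an adhesion molecule, so the place of *Ccl20* in the order is not settled. Among 6 further Rel and IκB family genes 3 were raised by smaller amounts, *Nfkbie* (IκBε, log2 0.68, SE 0.13, adjusted p = 0.000225), *Rel* (c-Rel, 0.42, adjusted p = 0.00292) and *Nfkbib* (IκBβ, 0.32, adjusted p = 0.00105).

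Genes of the signalling step changed less. Of 16 kinases and adaptors 4 were raised and 2 lowered, beside 11.2% raised and 6.59% lowered among all genes. The largest rises were those of the kinase gene *Map3k8* (1.52, adjusted p = 1.27e-08), *Irak2* (0.58, adjusted p = 4.9e-05) and *Irak4* (0.58, adjusted p = 0.000158), and *Irak1* (-0.29, adjusted p = 3.23e-05) and the ubiquitin ligase gene *Traf6* (-0.25, adjusted p = 0.00046) were lowered. The 3 subunits of the IκB kinase itself were not called, at -0.14 for *Chuk* (adjusted p = 0.0109), -0.06 for *Ikbkb* (adjusted p = 0.38) and -0.06 for *Ikbkg* (adjusted p = 0.416). Of 20 other genes of the ubiquitin machinery and of restraint 6 were raised and 2 lowered, beside the same 11.2% and 6.59% of all genes. Among the raised genes were *Zc3h12a*, which encodes an RNase that degrades inflammatory transcripts (from 0.998 ± 0.172 to 29.6 ± 2.11 CPM, log2 4.89, adjusted p = 9.36e-22), *Irak3*, an inhibitory member of the IRAK family (1.16, adjusted p = 2.3e-10), and *Tnip2*, which encodes ABIN2 (0.45, adjusted p = 5.14e-05). *Btrc* (-0.19, adjusted p = 0.00437), the F-box protein that recognises phosphorylated IκBα, and the deubiquitinase gene *Otud7b* (-0.16, adjusted p = 0.00877) were lowered.

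With IL-1β plus butyrate against IL-1β, 7 of the 66 genes were raised and 14 lowered, of which 2 and 8 were targets. Among all genes 8.41% were raised and 11.1% lowered. The share of raised genes was thus close to that of all genes, and the share of lowered genes was above it. *Nos2*, the inducible nitric oxide synthase gene, had 26 to 58 counts per library with IL-1β and 3 to 9 with both agents (log2 fold change -3.13, SE 0.40, adjusted p = 1.05e-06). *Cxcl1* (-1.45, adjusted p = 6.72e-06) and the gene of IL-1β itself, *Il1b* (-1.41, adjusted p = 1.88e-06), were lowered as well, whereas complement *C3* (0.75, adjusted p = 0.00241) and *Csf1*, the macrophage growth factor (0.46, adjusted p = 1.11e-05), were raised. As in the 10 genes, then, targets called in this comparison went both ways, but more of the targets were lowered (8) than raised (2). In the family 1 gene was raised (*Nkiras2*, 0.18, adjusted p = 0.00475) and 1 lowered (*Nfkbib*, -0.28, adjusted p = 0.00364), and so it was for kinases and adaptors with *Ikbke* (0.24, adjusted p = 0.00822) and *Irak1* (-0.47, adjusted p = 3.01e-08). Of the ubiquitin and restraint genes 3 were raised, *Otud7b* (0.21), *Traf2* (0.20) and *Rnf11* (0.19), and 4 lowered, the largest falls being those of *Tollip* (-0.34), *Tnip2* (-0.28) and *Itch* (-0.27), with adjusted p from 2.52e-05 (*Itch*) to 0.0084 (*Traf2*).

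With butyrate alone, 9 of the 66 genes were lowered and 4 raised, near the 11.4% and 8.53% of all genes. IL-1β added to butyrate raised 27 and lowered 3, beside 9.92% and 4.86% of all genes. Both agents together raised 28 and lowered 7 compared with control, beside 15.8% and 14.8%. *Nos2* was the one pathway gene with a called interaction (adjusted p = 0.0044), at 0 to 2 counts in control libraries and 1 to 10 with butyrate. That call was lost when control replicate 2 or 4, replicate 4 of IL-1β plus butyrate, or replicate 1 or 4 of butyrate was left out.

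**Figure D5:**
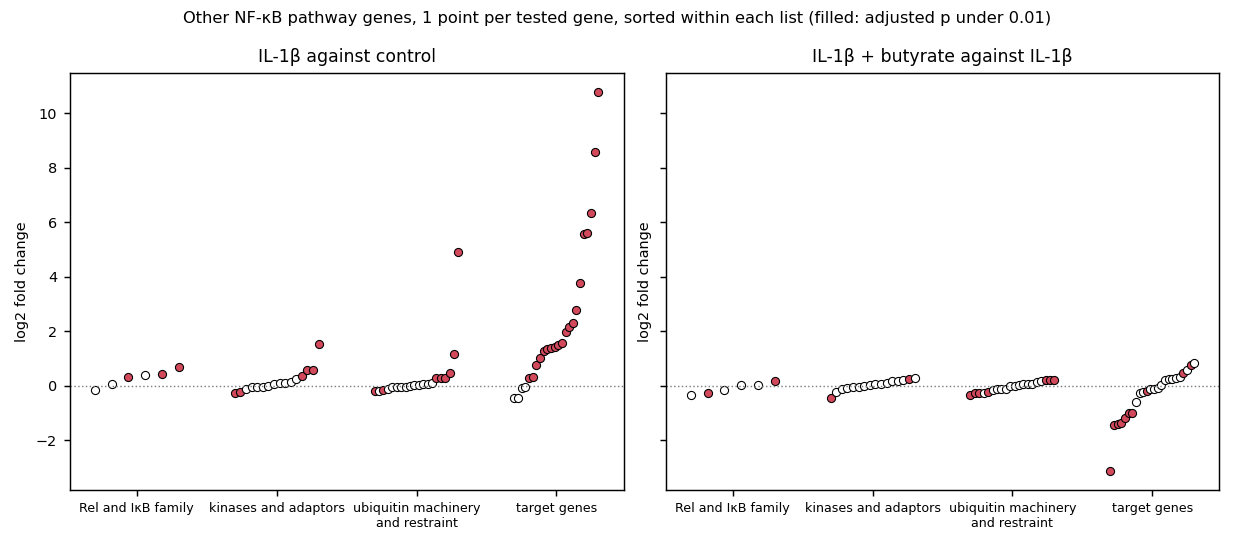
edgeR log2 fold changes (y axes) of the 66 other pathway genes tested, 1 point per gene, sorted within 4 lists (x axis) in 2 comparisons, with filled points at an adjusted p under 0.01. For IL-1β against control 20 of the 24 tested targets are filled, where all lists together hold 33 filled points above 0 and 4 below 0. For IL-1β plus butyrate against IL-1β 8 of the 10 filled targets lie below 0.

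Some counts can hold reads of another gene, since the strand setting of the counting is not stated. *Nfkb2* lies on chromosome 19 (46304320 to 46312385, plus strand) and shares 299 of its exon bases (6.52%) with *Psd* on the other strand. *Psd* had 1441 to 1558 counts in control libraries, 2051 to 3206 with IL-1β, 2243 to 2877 with both agents and 1212 to 1656 with butyrate, more than *Nfkb2* itself in each condition. A further 531 bases (11.6%) overlap with AC114539.1, which is not in the table. *Bcl3* shares 161 exon bases (6.51%) with the antisense gene *Gm16175*, which had at most 11 counts in a library. *Birc3* (chromosome 9, 7848699 to 7873186, minus strand) has its paralog *Birc2*, which encodes cIAP1, at a distance of 11634 bases. *Birc2* did not follow it, with 79.6 ± 2.62 CPM in control islets, 73.1 ± 4.79 with IL-1β (-0.12, adjusted p = 0.0942), 66.3 ± 5.66 with both agents (-0.14 from IL-1β, adjusted p = 0.0534) and 66.1 ± 1.12 with butyrate, a called decrease from control (-0.27, adjusted p = 0.000387).

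The genes whose profile over the 16 libraries was most like that of each of the 10 were found by the root mean square difference of log2 CPM, each gene centred on its own mean, among 12683 genes of sufficient level. The difference includes the size of the changes and not their direction alone, and the libraries share 4 conditions, so it is given as a description. *Relb* was nearest to *Pim2* (0.13) and *Cd82* (0.13), and *Cd82* was also the second nearest to *Nfkbia* (0.13) and to *Tnfaip3* (0.15), both of which were nearest to *Itga2* (0.10 and 0.11). For comparison, the median over the pool was 0.87 for *Relb*, 0.96 for *Nfkbia* and 0.95 for *Tnfaip3*. The nearest genes to *Nfkb2* were *Gm38070* at 0.20 and *Aqp4* at 0.22 (pool median 1.15), and those to *Birc3* were *Alpk1* at 0.27 and *Csf1* at 0.28 (pool median 1.33). *Nfkbiz* was nearest to *Tmem176b* (0.13) and *Lhfpl2* (0.14), *Bcl3* to *Tifa* (0.17) and *Jak3* (0.17), and *Tnip1* to *Serpina10* (0.10) and *Lgals3bp* (0.12). *Nfkb1*, with *1190002N15Rik* at 0.05 and *Enpp4* at 0.06, and *Rela*, with *Extl3* at 0.04 and *Mfn2* at 0.05, changed little, and the pool medians were correspondingly low at 0.25 and 0.19.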

How the data were processed

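RNA was sequenced as single-end reads from mouse islets in 16 libraries, 4 per condition. Per the labels and the paper, the authors mapped reads to GRCm38 (mm10) with STAR 2.5.3a and deposited raw counts per gene, whole numbers without normalization. The annotation release and strand setting are not given in the sources used here, and 0 columns of other samples were present. Without molecular identifiers, duplicate reads could not be told from separate molecules. Total counts were 18635943 to 25955943 per library.

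Conditions were taken from the sample labels. In R 4.3.3, edgeR 4.0.16 was used to filter low counts (filterByExpr, 18587 genes left), scale by TMM and fit 1 robust quasi-likelihood model of the 4 conditions to all 16 libraries. Calls were made where the p adjusted by Benjamini and Hochberg was under 0.01, as in the paper. The paper used DESeq2, which was an alternative here (version 1.42.0). Ratios were tested by exact permutation in R and called at an adjusted p under 0.05. Python 3.11.15 was used for gene positions, promoter searches and figures. The code was tested on simulated counts. A prior count of 2 was used for log2 CPM.

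Symbols were matched to 52403 identifiers, positions and exon lengths came from GENCODE M21 (GRCm38), and promoter windows from RefSeq. The 10 genes and the lists were chosen with earlier results of these data known. Genes named beyond the 10 were, per pathway list, up to 3 called genes that rose most and up to 3 that fell most, for IL-1β against control and for butyrate in the presence of IL-1β, and the 2 nearest profiles of each gene with an average log2 CPM of at least 1. The IκB kinase subunits, *Birc2*, *Icam1*, *C1qa*, the alpha and delta cell markers and the overlapping genes were named after their values were seen, as was *Nos2* in the interaction.

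Replicates carry the numbers 1 to 4 in every condition. Over the 5000 most abundant genes, deviations of libraries with the same number correlated at 0.263 to 0.690 between IL-1β and control, 0.337 to 0.591 between IL-1β plus butyrate and IL-1β, and 0.329 to 0.626 between IL-1β plus butyrate and control, so the numbers were taken to pair these. For butyrate against control (0.0707 to 0.429) and IL-1β plus butyrate against butyrate (0.0454 to 0.450) they were not. The paper describes 4 independent experiments, and the sample numbers in the column headers run through the 4 conditions within each replicate number. The sources used here do not state whether a number marks the same experiment in all 4 conditions, so the pairing is not settled. The calls reported first come from the fit without the replicate block.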

Additional observations from a re-analysis of the deposited data

Results flagged for a closer look

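In 3 of the 40 groups of 4 libraries tested (10 genes in 4 conditions), the highest library stood apart from the others by Dixon's criterion (the gap to the nearest library over the whole range), where chance alone gives about 1 group in 20. *Nfkb2* was at 12.7 CPM in control replicate 1 (gap over range 0.840) and at 86.3 CPM in IL-1β replicate 1 (0.845). *Tnfaip3* was at 6.25 CPM in control replicate 1 (0.913). All 3 were replicate 1 and all were high. Leaving out replicate 1 of every condition gave 9 called genes for IL-1β against control and 1 for butyrate against control, as with all libraries. For IL-1β plus butyrate against IL-1β it gave 4, but *Tnip1* (0.19, adjusted p = 0.012) was no longer called and *Nfkbia* (-0.21, adjusted p = 0.00927) was. It also ended the call of *Rela* for IL-1β plus butyrate against butyrate (0.18, adjusted p = 0.026) and gave a call of *Nfkb2* in the interaction (-0.67, adjusted p = 0.000777).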

How the results depend on the processing

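Direction and call of the 10 genes were compared over 25 alternatives (24 for the interaction), namely other scalings, DESeq2, no filter on low counts, the replicate block, fits of the 2 conditions alone, a threshold of 0.05, each of 16 libraries left out and, chosen after seeing the data, replicate 1 left out in every condition. Over all of these no called gene reversed. Of the values for single genes, 1440 kept direction and call, 37 became called, 9 lost their call and 4 values that were not called changed sign. IL-1β against control gave 9 called genes in each alternative, except 10 with scaling to library size. For IL-1β plus butyrate against IL-1β the replicate block gave 7 genes, other planned fits 4 to 6, and leaving out 1 library 3 to 6. *Tnfaip3* was called in 10 of the 25 alternatives, *Bcl3* in 5 and *Nfkbia* in 3. For butyrate against control the count of 1 became 2 with library-size scaling, 3 with the replicate block (also *Rela*, -0.17, adjusted p = 0.00484, and *Nfkbiz*, -0.18, adjusted p = 0.00953), 4 at 0.05 and 1 to 2 without 1 library. The interaction count of 0 became 1 (*Nfkb2*) with upper-quartile scaling, DESeq2, no filter, the replicate block, the threshold of 0.05 and without replicate 1 of every condition, and was 0 to 1 without 1 library. Of the other pathway genes, butyrate against control gave 21 at 0.05 in place of 13, and the interaction gave 2 with DESeq2, 3 without the filter, 4 with the block and 0 to 1 without 1 library in place of 1. The causes were not tested. The block changed no other call by more than 1.5 times. Shares of all genes called with the block are not given here. For butyrate against control and IL-1β plus butyrate against butyrate, where the numbers were not taken to pair the libraries, 2 and 3 of the 4 libraries correlated best with their own number. Among all genes called with IL-1β, the share raised was 63.0% with TMM, 51.5% with upper-quartile and 79.8% with library-size scaling, while the median of all genes shifted by less than 0.1. Paired sign-flip tests of the ratios cannot go below 0.125. With 80 counts at the lowest, depth limits *Tnfaip3*, *Bcl3* and *Relb* more than the other genes.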

Other observations

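Replicate 1 was the highest of its group for *Nfkb2*, *Relb*, *Nfkbia* and *Tnfaip3* in all 4 conditions, a pattern noticed after the values were seen and not tested. *Tnf*, not tested for lack of counts, reached 1 to 4 counts in a control library, 6 to 22 with IL-1β, 2 to 8 with both agents and 0 to 1 with butyrate.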
